A study of Mus with 6 samples.

Results

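Inhibitory and paired receptors of brain immune cells were followed through 10 genes, chosen by symbol from the 18887 genes of the deposited table. They are the Siglecs Siglech and Siglece, the CD300 genes Cd300a, Cd300lb, Cd300ld and Cd300lf, the signal regulatory receptor Sirpa with its ligand Cd47, the CD200 receptor Cd200r1 and the collagen receptor Lair1. All 10 were found, and 8 of them passed the filter on low values, a normalized read count of at least 10 in at least 2 libraries. The samples were ribosome-bound mRNA precipitated from whole mouse brain by RiboTag, a method in which a tagged ribosomal protein marks the ribosomes of a chosen cell type, here labelled microglia. The groups compared were IRKO, with the genotype label KO (4 samples), and control, with the genotype label Ctr (2 samples). The title of the series speaks of lost insulin signalling in microglia, and IRKO is taken to mean deletion of the insulin receptor. What drives the tag and the deletion, and the strain, sex and age of the mice, are not stated in the labels. Nor do they say whether replicates are different mice, so the p-values speak of the spread among these libraries alone, which may be technical.

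Microglia carry surface receptors that damp or tune their response. Many inhibitory receptors, though not all, bear short tyrosine motifs in their cytoplasmic tails that, once phosphorylated, recruit the phosphatases SHP-1, SHP-2 or SHIP-1. Their activating partners lack such motifs and signal through adaptors such as DAP12 or the Fc receptor gamma chain. Their ligands tend to be marks of healthy self or of dying cells: sialic acids for Siglecs, exposed phospholipids for several CD300 receptors, CD47 for SIRP-alpha, CD200 for its receptor, and collagens and C1q for LAIR1. The pair formed by CD47 and SIRP-alpha is best known for restraining phagocytosis.

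The libraries held 13858978 to 14568773 reads in IRKO and 16883098 and 19010680 reads in control. Insr, the insulin receptor gene, read 290 to 366 normalized counts in IRKO and 565 and 532 in control, and its log2 change was −0.70 ± 0.135 (SE, limma adjusted p = 0.00211). The precipitates also differed in the level of cell type markers. The summed level of 25 astrocyte markers was 90859 to 124341 normalized counts in IRKO and 1097930 to 1371140 in control, and that of 44 homeostatic microglia genes, a list that holds none of the 10 genes, was 397578 to 539213 in IRKO and 174185 to 227879 in control. No marker of either list was at 0. Of 18 lymphocyte and red cell markers, haemoglobin genes included, the sum was 572 to 2435 in IRKO and 75713 and 161824 in control replicates 1 and 2, with a median log2 change of −6.36 over the 8 tested. The sum of 18 liver markers was 8769 to 19589 in IRKO and 8458 and 86336 in control. Most of it came from Ttr and Trf, and Trf is also an oligodendrocyte marker. Ttr read 658 to 11973 in IRKO and 3549 and 66778 in control replicates 1 and 2. Trf read 7504 to 9063 in IRKO and 3758 and 3982 in control. Control replicate 2 thus stood apart in the sum mainly through Ttr. Of the 16 tested, 14 were called lower and 1, Trf, higher (median −5.95). The median was −4.34 without control replicate 2, so most of these markers were lower than in control replicate 1 too. The part of these differences in the receptor values was not tested. IRKO replicate 3 had the lowest microglia sum among the IRKO libraries. Because these are bulk precipitates, more cells of a type and more RNA per cell cannot be told apart, and neither can cell content and genotype.

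Most of the receptors were higher in IRKO, and the only ligand among the 10 genes was lower. Siglech, Siglece, Cd300a, Cd200r1 and Lair1 rose by between 2.30-fold and 3.65-fold, Cd47 fell by 0.82 on the log2 scale, and neither Sirpa nor Cd300lf passed the test (limma adjusted p under 0.05 as the threshold, n = 4 against 2). Thus 5 of 8 tested genes were called higher and 1 lower, where 26.6% of all 14698 tested genes were called higher and 29% lower. The median log2 change was 1.25 over the 8 tested genes (−0.14 with libraries scaled to the microglia list, as described further on) and 0.02 over all tested genes. It was 1.52 over the 44 microglia genes, of which 40 were called higher and 1 lower. Without control replicate 2 the same numbers, 5 higher and 1 lower, were called, with a median of 0.97. Cd200r1 and Cd300lf passed the filter through IRKO libraries alone, so these counts and the median describe the tested genes and not all 10. The 4 IRKO values lay above both control values for 6 of the 8 tested genes and below both for 1, against 32.8% and 34.8% of all tested genes.

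**Figure D1:**
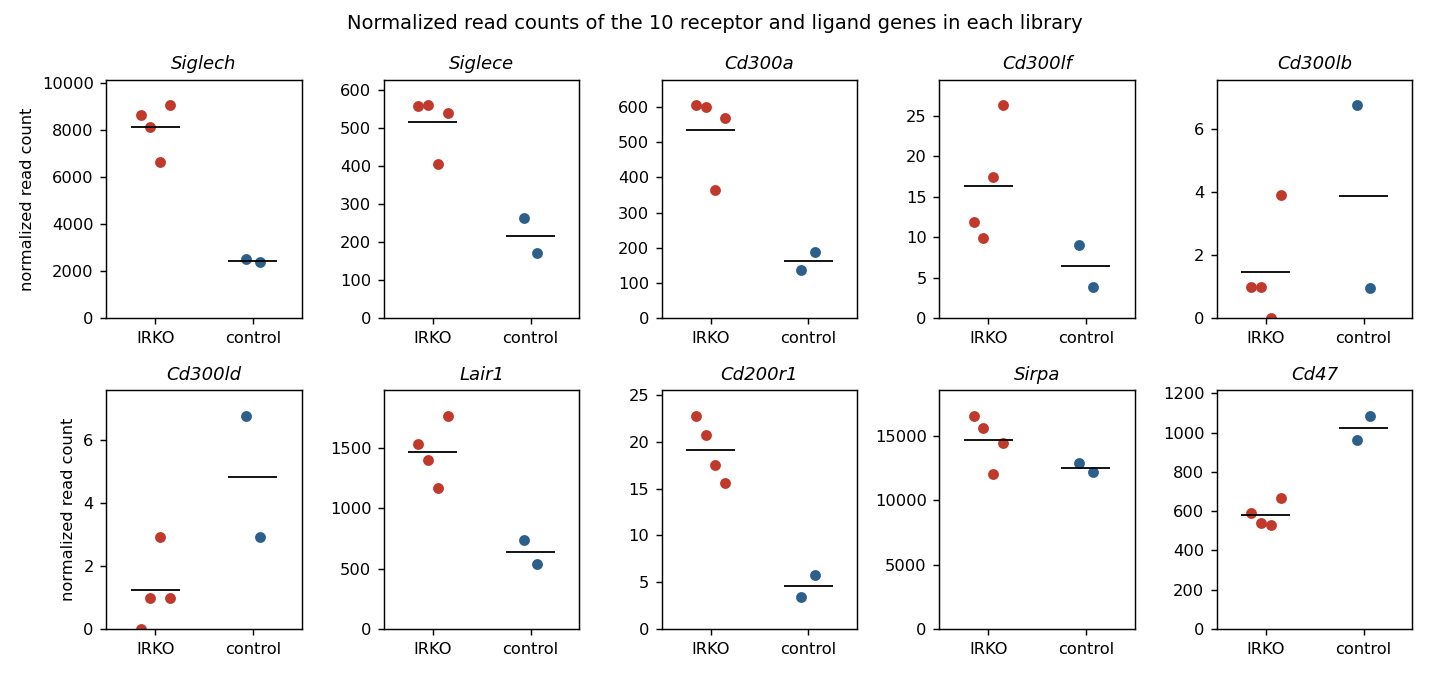
Normalized read counts (vertical axes, each from 0 and scaled to its gene) of the 10 genes, with 1 point per library, IRKO on the left and control on the right, and a line at each group's mean. The IRKO points of Siglech, Siglece, Cd300a, Cd300lf, Lair1 and Cd200r1 all lie above both control points, those of Cd47 lie below them, and Cd300lb and Cd300ld stay under 10 in every library.

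Siglech lies on chromosome 7 from 55768154 to 55779448 (GRCm38.p6) and encodes a Siglec that is used as a marker of microglia. It lacks an inhibitory motif of its own and pairs with DAP12. It read 8645, 8143, 6658 and 9047 normalized counts in IRKO replicates 1 to 4, against 2522 and 2380 in control replicates 1 and 2. The lowest IRKO library stood far above the higher control library. The mean was 8123 ± 1045 (SD, n = 4) in IRKO and 2451 ± 100.3 (SD, n = 2) in control, a log2 change of 1.72 ± 0.144 (SE, limma adjusted p = 1.54e-05).

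Siglece, on the same chromosome from 43648882 to 43672044, encodes a Siglec that binds sialic acids and carries inhibitory motifs. It had 558, 559, 405 and 538 normalized counts in IRKO and 262 and 170 in control. IRKO replicate 3 was low within its group but still above both controls, which themselves differed by more than the other 3 IRKO libraries did. The log2 change was 1.27 ± 0.202 (SE, limma adjusted p = 0.000714). Within a library the reads of both Siglecs can be set against each other without any scaling between libraries. Siglece took 5.61% to 6.42% of their joint reads in IRKO, and 9.41% (95% exact binomial interval 8.29 to 10.6%) and 6.68% (5.76 to 7.70%) in control replicates 1 and 2. The interval of control replicate 2 overlapped those of the IRKO libraries, so a difference in this share rests on control replicate 1. These intervals cover counting error only.

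The 4 CD300 genes lie within a cluster on chromosome 11 from 114889152 to 115135372, in which 11 genes of the RefSeq annotation had a row in the table. Only 3 of the 11 passed the filter, and 2 of these were called higher. Cd300a, at one end of the cluster (114889152 to 114901946), encodes an inhibitory receptor for phosphatidylserine and phosphatidylethanolamine. It read 605, 601, 364 and 569 normalized counts in IRKO against 137 and 189 in control. All 4 IRKO libraries were higher, with replicate 3 apart from the rest. The log2 change was 1.70 ± 0.228 (SE, limma adjusted p = 0.000274).

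Cd300lf, at the other end (115116214 to 115135372), encodes an inhibitory receptor that also binds phosphatidylserine. It was read rarely, at 11.9, 9.86, 17.5 and 26.3 normalized counts in IRKO and 8.998 and 3.87 in control, which came from 67 reads over all IRKO libraries and 12 over both controls. The groups did not overlap, but the lowest IRKO library and the higher control library were within 1 normalized count of each other. The log2 change of 1.22 ± 0.540 (SE) did not pass (limma adjusted p = 0.0806), and it spanned 0.71 to 1.74 as single libraries were left out.

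Cd300lb and Cd300ld encode receptors with short tails that signal through adaptors. Neither reached the filter, and neither has a test. Cd300lb had 1, 1, 0 and 4 reads in IRKO replicates 1 to 4 against 6 and 1 in control, and the 0 reads of IRKO replicate 3 allow up to 2.91 normalized counts. Cd300ld had 0, 1, 3 and 1 reads in IRKO against 6 and 3 in control. The ratio of their depth-corrected reads, IRKO over control, was 0.404 for Cd300lb (95% counting interval 0.112 to 1.40) and 0.262 for Cd300ld (0.0689 to 0.870), for counting error only. Control replicate 1 held 6 of the 7 control reads of the first gene and 6 of the 9 of the second.

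The rest of the cluster was uneven as well. Cd300c2, a neighbour that encodes another receptor of the family, read 2497, 2559, 1784 and 2321 normalized counts in IRKO against 872 and 709 in control, a log2 change of 1.53 ± 0.164 (SE, limma adjusted p = 7.30e-05). Cd300ld2 and Cd300ld5 were at 0 in all 6 libraries, and Cd300c, Cd300ld3, Cd300ld4 and Cd300e stayed under 10 in each. These genes are close paralogs, so reads shared between copies could have been lost or moved by the counting, whose rule for such reads is not stated in the labels.

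Lair1, on chromosome 7 from 4007073 to 4073567, encodes an inhibitory receptor for collagens and C1q. Its counts were 1534, 1405, 1166 and 1768 in IRKO and 740 and 539 in control. The lowest IRKO library was above the higher control library. The mean was 1468 ± 251 (SD, n = 4) in IRKO and 640 ± 142 (SD, n = 2) in control, a log2 change of 1.20 ± 0.183 (SE, limma adjusted p = 0.000571).

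Cd200r1, on chromosome 16 from 44765736 to 44794977, encodes the receptor through which CD200, a membrane protein abundant on neurons, restrains myeloid cells. It was scarce, with 22.8, 20.7, 17.5 and 15.6 normalized counts in IRKO and 3.37 and 5.81 in control. That is 78 reads over the 4 IRKO libraries and 9 over both controls. Its log2 change was 1.87 ± 0.429 (SE, limma adjusted p = 0.0052), and it spanned 1.55 to 2.19 as single libraries were left out. Of its neighbours within 150 kb on either side, the paralog Cd200r4 stayed under 10 in each library and Cd200r2 was at 0 in all 6.

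Sirpa, on chromosome 2 from 129591042 to 129632228, encodes SIRP-alpha, an inhibitory receptor of macrophages, microglia and neurons. It read 16554, 15624, 12078 and 14477 normalized counts in IRKO against 12906 and 12189 in control. The groups overlapped, since IRKO replicate 3 was below both controls. The log2 change was 0.22 ± 0.159 (SE, limma adjusted p = 0.270). Under quantile normalization, which moved the median of all genes to 0.12, the change was 0.63 ± 0.153 and passed (limma adjusted p = 0.00682).

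Cd47, on chromosome 16 from 49851328 to 49912503, encodes the broadly expressed protein that binds SIRP-alpha and signals that a cell should not be engulfed. It had 592, 540, 530 and 666 normalized counts in IRKO and 963 and 1084 in control. Every IRKO library was below both controls, and the gap between the groups exceeded the spread within either. The mean was 582 ± 62.2 (SD, n = 4) in IRKO and 1024 ± 86.0 (SD, n = 2) in control, a log2 change of −0.82 ± 0.131 (SE, limma adjusted p = 0.000743). Cd47 is expressed by most brain cells, and the astrocyte marker sum was lower in the same 4 libraries. The part of that difference in the fall of Cd47 was not tested.

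The ratio of receptor to ligand within a library is not altered by a single scaling factor per library, though quantile normalization can change it. Sirpa over Cd47 was 27.9, 28.9, 22.8 and 21.7 in IRKO replicates 1 to 4 and 13.4 and 11.2 in control replicates 1 and 2. The ratio was thus higher in every IRKO library, by 1.03 on the log2 scale. An exact two-sided permutation test over the 15 assignments of the samples gave p = 0.133, which is the smallest value that 4 against 2 samples allow.

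Since microglial genes as a whole were higher in IRKO, each gene was also set against the mean log2 level of the 44 homeostatic microglia genes in its own library. Trem2, Tyrobp, Fcer1g, Inpp5d, C1qa, C1qb and C1qc, which belong to lists described below, are among those 44 genes and so enter that mean. In that scaling the median gene stood at −1.37, and it turned the split of all calls to 77 higher (0.524%) and 11522 lower (78.4%). None of the 8 genes was called higher in it and 2 were called lower. The log2 level of Siglech minus the list mean was 0.40, 0.34, 0.41 and 0.45 in IRKO replicates 1 to 4, against −0.04 and 0.17 in control. All IRKO values were higher, but the difference of 0.33 ± 0.218 (SE) did not pass (limma adjusted p = 0.168).

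The differences of Cd300a (0.31 ± 0.242), Cd200r1 (0.48 ± 0.563), Siglece (−0.12 ± 0.216), Cd300lf (−0.16 ± 0.603) and Lair1 (−0.19 ± 0.205) from the list also did not pass (limma adjusted p = 0.245, 0.437, 0.620, 0.810 and 0.405 in that order). Siglece, Cd300lf and Lair1 had a negative sign here. Sirpa and Cd47 differed from the list mean, though not from every gene of the list. Of the 44 list genes themselves, 6 were called higher and 5 lower in this scaling. As deposited their changes spanned −1.19 to 2.10, a range that holds those of Sirpa and Cd47. Sirpa stood 1.33, 1.28, 1.27 and 1.13 log2 units above the list mean in IRKO and 2.32 and 2.53 above it in control, a difference of −1.17 ± 0.246 (SE, limma adjusted p = 0.000224). Cd47 stood below the list mean, at −3.47, −3.57, −3.24 and −3.31 in IRKO and at −1.42 and −0.96 in control. Its difference was −2.20 ± 0.217 (SE, limma adjusted p = 2.39e-08). The distance of a gene from the list mean also holds its transcript length, so it is read here only between the groups. Against the shift of all genes by −1.37, Sirpa lay close to the median gene and Cd47 below it.

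**Figure D2:**
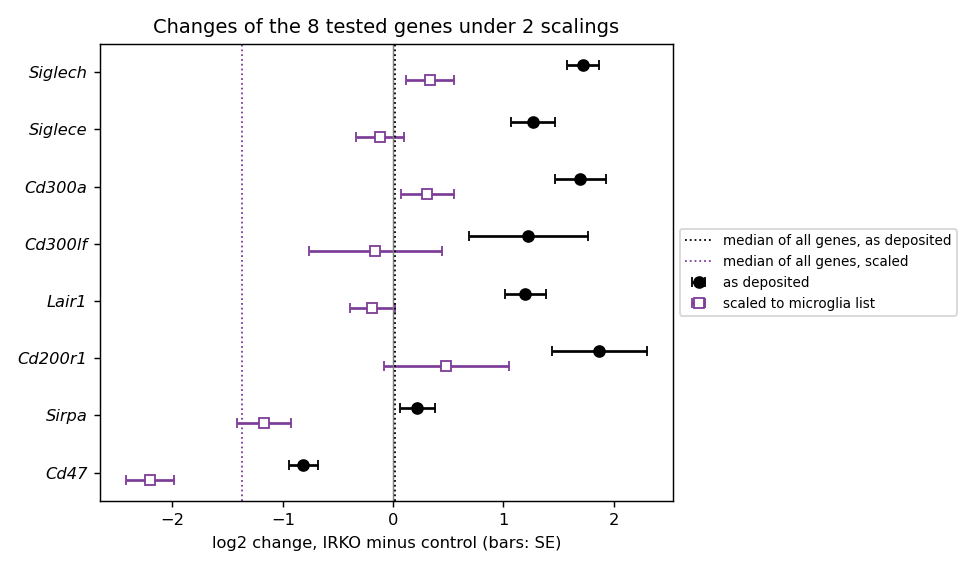
Log2 change, IRKO minus control, of the 8 tested genes (horizontal axis, bars are SE) as deposited (filled points) and with libraries scaled to the homeostatic microglia list (open squares), with dotted lines at the median of all genes in each scaling (0.02 and −1.37). Siglech, Siglece, Cd300a, Cd300lf, Lair1 and Cd200r1 lie within 0.5 of 0 once scaled, whereas Sirpa stands at −1.17 and Cd47 at −2.20.

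**Figure D3:**
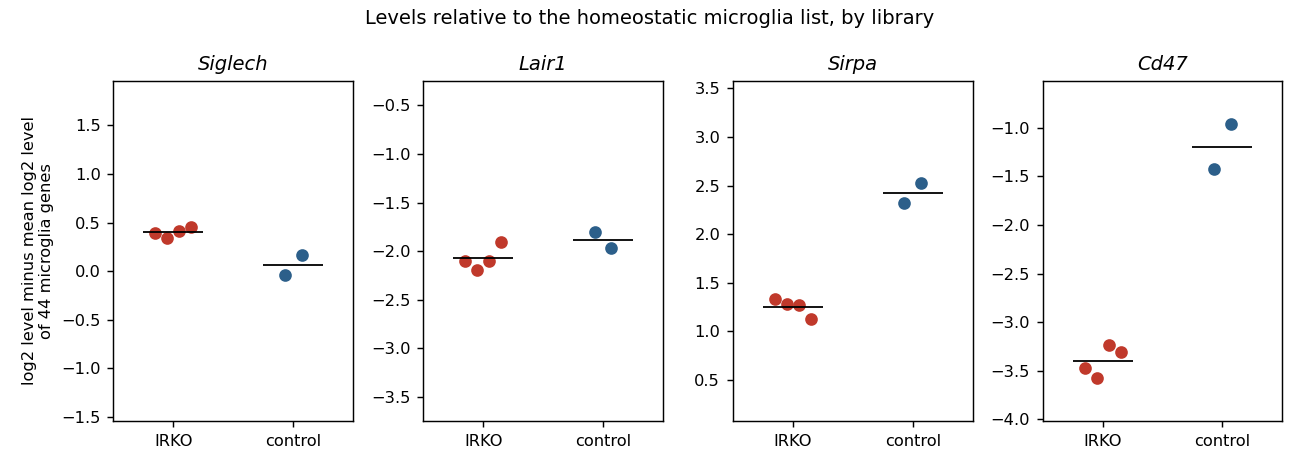
Log2 level of Siglech, Lair1, Sirpa and Cd47 minus the mean log2 level of 44 microglia genes in the same library (vertical axes span the same range in each panel), with 1 point per library and a line at each group's mean. Siglech and Lair1 differ little between IRKO and control, while the 4 IRKO points of Sirpa and of Cd47 lie below both control points.

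Genes whose profile over the 6 samples was most like a member's were sought by the root mean square distance between centred log2 values, among 11074 genes with a mean of at least 100. The nearest to Siglech were Havcr2, which encodes the immune receptor TIM-3 (distance 0.034), Lpcat2, a lysophospholipid acyltransferase (0.046), and Rcsd1, a regulator of actin capping (0.060). Havcr2 read 1938, 1879, 1519 and 1991 normalized counts in IRKO against 574 and 512 in control. Nearest to Sirpa were Vamp8, a SNARE protein of endosomes (0.026), Aagab, which aids assembly of clathrin adaptors (0.043), and Mcl1, an inhibitor of cell death (0.048). Nearest to Cd47 were Rasa3, a GTPase-activating protein (0.068), Cad, an enzyme of pyrimidine synthesis (0.073), and Gsap, a gamma-secretase activating protein (0.078). With 6 samples these distances only describe the profiles.

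Other receptors of these and related families were mostly higher too as deposited, though their median fell to −0.06 with libraries scaled to the microglia list. Of 48 listed, 45 had a row and 21 were tested. Of these, 18 were called higher and none lower, against 26.6% and 29% of all tested genes. Their median log2 change was 1.32, against 0.02 over all tested genes and 1.52 over the microglia list. Among those called higher, Siglecf, Cd22 and Lilra5 reached 10 in fewer than 2 control libraries. They passed the filter only with IRKO libraries counted, and are named for that reason. Mag, also called higher, is on the oligodendrocyte marker list as well. Of the 24 tested genes of that list, 13 were called higher and 3 lower (median 0.85). The part of such cells in the change of Mag was not tested. The 3 related receptors without a call were Siglec1, Siglecg and Clec12a. They were chosen for naming after their values were seen, as were Cd22, Mag, Pilra, Lilra5, Clec4a1, Clec7a, Cd72 and Treml2 below. Clec12a stood at −2.14 (limma adjusted p = 0.0903). Without control replicate 2 the number called higher was 10, and Cd22, Mag, Pilra, Lilra5, Clec4a1, Clec7a, Cd72 and Treml2 lost their calls.

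Cd33, a Siglec whose human counterpart is a risk gene for Alzheimer's disease, read 565, 626, 386 and 612 normalized counts in IRKO against 142 and 130 in control. This is a log2 change of 1.98 ± 0.200 (SE, limma adjusted p = 5.08e-05). It was still higher with libraries scaled to the microglia list (0.59, limma adjusted p = 0.0189), as were 6 of the 44 genes of that list. Cd84 and Slamf9, receptors of the SLAM family, rose by 1.70 ± 0.194 and 1.60 ± 0.182 (log2, SE), and stood at 0.31 and 0.22 in that scaling, where neither passed (limma adjusted p = 0.181 and 0.383).

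Most signalling partners of the receptors were higher as deposited. Of 28 listed and 27 tested, 18 were called higher and 4 lower, against 26.6% and 29% of all tested genes. Their median log2 change was 1.21, or −0.17 scaled to the microglia list, where the medians of all genes were 0.02 and −1.37. Tyrobp, which encodes the adaptor DAP12, read 6091, 6064, 4918 and 6112 normalized counts in IRKO against 2163 and 1826 in control, a log2 change of 1.54 ± 0.136 (SE, limma adjusted p = 2.22e-05). Syk, the kinase that such adaptors engage, rose by 1.79 ± 0.175, and Vav1, an exchange factor downstream of it, by 1.82 ± 0.155 (log2, SE). Inpp5d, which encodes the phosphatase SHIP-1, rose by 1.92 ± 0.160. With libraries scaled to the microglia list Inpp5d was still called higher (0.53, limma adjusted p = 0.0308), but Vav1 (0.43), Syk (0.41) and Tyrobp (0.15) were not. Inpp5d and Tyrobp are themselves genes of that list, so their values in that scaling are not independent of it.

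Among the partners called lower was Inppl1. This gene, which encodes SHIP-2, read 463, 444, 407 and 476 normalized counts in IRKO against 2040 and 1340 in control, a log2 change of −1.89 ± 0.167 (SE, limma adjusted p = 2.22e-05). Src, a widely expressed kinase, changed by −1.27 ± 0.123. Among the phosphatases that inhibitory motifs recruit, which were singled out after their values were seen, Ptpn6, the SHP-1 gene of blood cells, rose by 1.06 ± 0.207, and Ptpn11, the SHP-2 gene of most tissues, changed by −0.75 ± 0.121 (log2, SE, limma adjusted p = 0.00225 and 0.000781). In the scaling to the microglia list, Ptpn6 stood at −0.33 and did not pass (limma adjusted p = 0.165). Inppl1 (−3.27), Src (−2.66) and Ptpn11 (−2.13) were called lower there, as were 78.4% of all tested genes (median −1.37). The astrocyte marker sum was lower in IRKO too, and its part in the falls of Inppl1, Src and Ptpn11 was not tested.

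Ligands and the enzymes that make sialic acid ligands were mixed. All 36 listed were tested, 19 were called higher and 4 lower, against 26.6% and 29% of all tested genes. Their median log2 change was 0.81 as deposited (0.02 over all genes) and −0.57 scaled to the microglia list (−1.37 over all genes). Among those called higher, St8sia6, named for this reason, passed the filter through IRKO libraries alone. Cd200, the ligand of CD200R1, read 617, 605, 655 and 514 normalized counts in IRKO against 233 and 294 in control, and rose by 1.18 ± 0.148 (log2, SE, limma adjusted p = 0.00018), but stood at −0.20 in that scaling. The neuronal marker list, which had a median of 0.85 and 23 of 31 genes called higher, was higher too, and its part in the change of Cd200 was not tested. Thus the ligand genes Cd47 and Cd200 changed in opposite directions as deposited.

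Among sialyltransferases, which add the sialic acids that Siglecs read, St3gal5 and St3gal6 rose by 1.03 ± 0.114 and 1.57 ± 0.189, and St8sia3, which builds oligosialic chains in the brain, by 1.01 ± 0.131 (log2, SE). Scaled to the microglia list, St3gal5 (−0.36), St8sia3 (−0.37) and St3gal6 (0.18) no longer passed. St3gal4, which adds sialic acid to galactose ends, read 235, 154, 260 and 247 normalized counts in IRKO against 1047 and 1218 in control, a log2 change of −2.36 ± 0.210 (SE, limma adjusted p = 2.33e-05). Gne, the first enzyme of sialic acid synthesis, was lower as well (−0.64 ± 0.128, limma adjusted p = 0.00256). St3gal4 and Gne were lower in each of the scalings tried. In that to the microglia list they stood at −3.74 and −2.02, but 78.4% of all tested genes were called lower there (median −1.37). The part of the lower astrocyte marker sum in the falls of St3gal4 and Gne was not tested.

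Some ligand genes outside the naming rule were singled out after their values were seen. Col1a1, which encodes a chain of collagen I and so a ligand of LAIR1, read 1512, 1020, 3349 and 2875 normalized counts in IRKO against 277 and 194 in control, a log2 change of 3.08 ± 0.423 (SE, limma adjusted p = 0.000307). The IRKO libraries spread widely and all lay above both controls. Col1a1 was still higher with libraries scaled to the microglia list (1.69, limma adjusted p = 0.000342). Of the other collagen genes listed, Col3a1 passed in that scaling too (1.58, limma adjusted p = 0.0189). Col1a2 (0.69), Col4a1 (0.02) and Col4a2 (−0.67) did not. As deposited Col1a2, Col3a1 and Col4a1 were called higher, but Col4a2 had no call (0.72, limma adjusted p = 0.129). C1qa, a chain of C1q, which also binds LAIR1, rose by 1.67 ± 0.218 (log2, SE). It stood at 0.28 in that scaling, though C1qa is itself a gene of the microglia list. Qpctl, whose enzyme modifies CD47 so that SIRP-alpha can bind it, read 160, 187, 183 and 180 normalized counts in IRKO against 265 and 224 in control, a log2 change of −0.46 ± 0.151 (SE, limma adjusted p = 0.0284). That call was lost without IRKO replicate 1 (−0.41, limma adjusted p = 0.0626; edgeR adjusted p = 0.0752) and without control replicate 1 (−0.33, limma adjusted p = 0.200). With the replicate number as a block it was lost as well (−0.49, limma adjusted p = 0.0979).

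**Figure D4:**
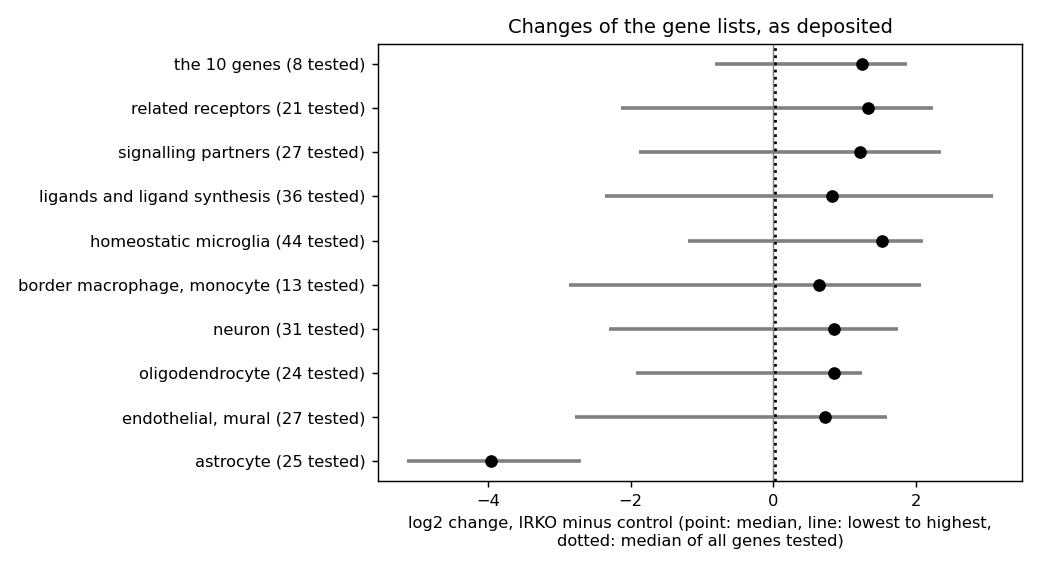
Log2 change, IRKO minus control, as deposited (horizontal axis) of the tested genes in each list, with a point at the list's median and a line between its lowest and highest gene. The 10 genes (8 tested, median 1.25), the related receptors (1.32) and the signalling partners (1.21) lie between the neuron list (0.85) and the microglia list (1.52), and the astrocyte list lies at −3.96.

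Markers of other immune cells that carry these receptors were recorded as levels. Over all tested genes 26.6% were called higher and 29% lower, and with so few genes tested per list the counts below only describe them. The border macrophage and monocyte markers summed to 2632 to 3699 normalized counts in IRKO and 1629 to 2104 in control, with 5 of 13 tested genes called higher and 1 lower. The neutrophil markers summed to 856 to 1163 in IRKO and 410 to 1003 in control, with 2 of 8 tested genes called higher and 3 lower. Csf3r, at a mean of 726 in IRKO and 301 in control, made most of the sum in IRKO. The median log2 change of the 8 tested genes was negative, so the sums do not stand for the list as a whole. In the lymphocyte and red cell list described above, 1 of 8 tested genes was called higher and 5 lower, and Ncr1 was at 0 in all 6 libraries. Its most abundant genes were the haemoglobins Hba-a1, at a mean of 385 in IRKO and 40792 in control, and Hbb-bs, at 213 in IRKO and 39318 in control, paralogs whose separate values are uncertain. No gene of the macrophage or neutrophil list was at 0 over all libraries of a group, and the part of such cells in the receptor values was not tested.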

How the data were processed

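RiboTag precipitates of 4 IRKO and 2 control samples were analysed. The submitters' processing notes name Bowtie2 and GRCm38.p6. The sources used here do not state how reads were counted, with what regard to paralogs and strand, or how they were normalized. The authors deposited 1 value per gene and sample, a signal made of read counts over a size factor of the sample, as the values themselves show: in every library 100% of them were whole multiples, within 0.05 reads, of the value of a single read. In IRKO replicate 1 that value was 0.991, and its steps could not be told formally from rounding.

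A gene was tested if at least 2 samples had a value of 10 or more. The test was limma 3.58.1 (R 4.3.3) on log2(value + 1), IRKO minus control, with moderated variances that follow a trend and two-sided p adjusted by Benjamini-Hochberg over 14698 genes. The pseudocount of 1 understates changes of low genes. Genes were not ranked by level, as transcript lengths were not used here, and ratios between genes within a library were compared only between groups. Coordinates are RefSeq's for GRCm38.p6, where 18542 symbols matched. Chi-square per degree of freedom between replicates was 17.0 to 37.9, so each library was counted separately. Same-numbered samples deviated with correlations of −0.08 and 0.08, so numbers were not taken as pairs. The genes named were all 10 members, up to 4 and 2 genes with the smallest p per direction of each related list, 3 nearest profiles each for Siglech, Sirpa and Cd47, and exceptions stated as such. Members and lists were chosen with earlier results of these data known. The reads recovered from the values were also tested with edgeR 4.0.16 and with DESeq2 1.42.0. The edgeR test without IRKO replicate 1 and the view of the Cd300 and Cd200r1 neighbourhoods were added after seeing the data.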

Additional observations from a re-analysis of the deposited data

Results flagged for a closer look

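IRKO replicate 3 lay far below the other 3 IRKO libraries in 6 of 50 gene and list values examined, and chance alone sets apart about 1 in 20 groups of this size. The 50 values are not independent, as Tyrobp is part of the microglia list and Rcsd1 was picked as a profile near Siglech. The 6 therefore cannot be counted as separate events. Among the receptor genes these were Siglece, at 405 normalized counts, and Cd300a, at 364. The others were Vav1 at 1862, Tyrobp at 4918, Rcsd1 at 1031 and the summed level of the homeostatic microglia list at 397578. All 6 were low in the same library. Without it the log2 change was 1.38 for Siglece and 1.87 for Cd300a, and both were still called higher by limma.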

How the results depend on the processing

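Of the 8 tested genes, Cd47 was called lower under all 19 alternatives (−2.20 to −0.62). Siglech, Siglece, Cd300a and Lair1 kept their direction and call in 18 of 19 and Cd200r1 in 17 of 18, the exception being the scaling to the microglia list, which centres genes that follow that list near 0 by construction. There Siglece stood at −0.12, Cd300lf at −0.16, Lair1 at −0.19 and Sirpa at −1.17, all against a median of −1.37 over all genes. That scaling gave 0 of the 8 genes higher and 2 lower (Sirpa and Cd47), 2 related receptors higher (Siglecf and Cd33) and 1 lower (Clec12a), 2 signalling partners higher (Inpp5d and Hcst) and 11 lower, 2 ligand genes higher (Col1a1 and Col3a1) and 16 lower, and 77 genes higher and 11522 lower in all. Sirpa passed only under quantile normalization and, in the other direction, under that scaling. Cd300lf passed under none of 18 alternatives. As single libraries were left out, the counts were 5 higher and 1 lower of the 8 genes throughout, 10 to 17 higher and 0 to 1 lower of the related receptors, 16 to 19 higher of the partners, and 16 to 20 higher and 3 to 4 lower of the ligand genes. The 1 related receptor lower was Clec12a. With no filter, 2 related receptors were called lower (Treml4 and Clec4b1), both read only at low levels. With the replicate block, which rests on replicates 1 and 2 alone, 1 related receptor (Clec12a) was lower and 14 were higher, Clec4a1, Cd72, Cd22 and Mag losing their calls, the 8 genes again gave 5 higher and 1 lower, 3244 genes were higher and 3691 lower, and Sirpa over Cd47 differed by 1.21 on the log2 scale. That ratio difference was 0.91 to 1.16 without single libraries. The filter at 50 removed Cd300lf and Cd200r1. At 5 to 78 reads per group, Cd300lb, Cd300ld, Cd300lf and Cd200r1 are limited by depth.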
